A study of Mus musculus with 6 samples.

Results

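The complement system was followed here through 9 genes in the ovaries of 7-month-old mice. They encode the 3 chains of C1q (C1qa, C1qb and C1qc), the proteins that build the enzymes of the cascade (C2, C4b and Cfb), the central component C3, and the receptors C3ar1 and C5ar1. The members were the rows of the deposited gene table that carry these 9 names, out of 34461 genes in the table. Poly-A RNA of whole ovaries was sequenced from 3 mice per group, and the labels were read as 1 mouse per library. The Trim28 cKO mice were Trim28 flox/flox with the Nr5a1:Cre transgene, which is active in somatic cells of the gonad from fetal life, so germ cells, blood vessels and leukocytes of the same ovaries were not the intended targets of the deletion. The samples of the other group are labelled only as control. The deposited comparison and the study's RNA-seq methods call this group WT or wild-type. In the study's methods control mice were either Trim28 flox/flox without the transgene or Trim28 flox/+ with it, and the sources used here do not say which of these each control library came from. By that definition of controls every mouse carried a floxed Trim28 allele, though no label of a control library states it. All mice were aged 7 months and on a mixed 129SV/C57BL6/J background.

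Complement is a cascade of plasma proteins that tags cells and debris for removal. In the classical route C1q recognises a target, the proteases bound to it cleave C4 and C2, and the resulting enzyme cleaves C3. In the alternative route factor B, the product of Cfb, takes the place of C2 next to a fragment of C3. Each cleavage of C3 and C5 frees a small peptide that is sensed by C3ar1 or C5ar1, mostly on myeloid cells. The liver makes most circulating complement, tissue macrophages are a main source of C1q, and fibroblasts, epithelia and other stromal cells can make C3 and C4. C1q, C3 and C4 are also known from the clearance of dying cells, which in the ovary accompanies follicle atresia and regression of the corpus luteum.

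All 9 genes lie on the minus strand of mm10. C1qb (chromosome 4, 136880129 to 136886187), C1qc (136889804 to 136893065) and C1qa (136895917 to 136898803) stand side by side. C4b (chromosome 17, 34728380 to 34743882), Cfb (34856374 to 34862518) and C2 (34862604 to 34898265) share the major histocompatibility complex class III region, and C3 lies elsewhere on that chromosome (57203970 to 57228136). The receptor genes are on chromosome 6 (C3ar1, 122847138 to 122856161) and chromosome 7 (C5ar1, 16246743 to 16259540). RefSeq start sites of build GRCm38.p6, the same assembly as mm10, were at hand for 5 of the 9 members (C1qb, C1qc, C3, C3ar1 and C5ar1). The sequence before the start is shown for C3, a member with one of the steepest rises, and for the neighbours C1qb and C1qc, which rose by similar factors. Each is written 5′ to 3′ in the direction of the gene, with capitals for the motif matches described next. The C3 stretch is chr17:57228137-57228386, the C1qb stretch chr4:136886201-136886450 and the C1qc stretch chr4:136893066-136893164, all on the minus strand. The C1qc stretch is shorter because the rest of its window lies in an exon of the GENCODE annotation.
C3: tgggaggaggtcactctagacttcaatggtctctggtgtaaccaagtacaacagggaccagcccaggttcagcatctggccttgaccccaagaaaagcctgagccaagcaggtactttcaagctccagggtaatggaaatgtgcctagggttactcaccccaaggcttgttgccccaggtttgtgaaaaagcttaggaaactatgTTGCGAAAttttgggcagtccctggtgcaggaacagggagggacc
C1qb: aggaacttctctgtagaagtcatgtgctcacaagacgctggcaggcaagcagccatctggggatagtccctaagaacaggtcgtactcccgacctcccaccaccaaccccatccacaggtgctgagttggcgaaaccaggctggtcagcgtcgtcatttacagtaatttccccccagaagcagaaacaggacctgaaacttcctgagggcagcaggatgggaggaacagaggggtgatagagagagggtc
C1qc: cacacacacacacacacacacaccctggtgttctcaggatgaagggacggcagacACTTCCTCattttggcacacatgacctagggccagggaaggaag

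A set of 4 short motifs was searched on both strands of the 250 bases before each start, and the same was done for 32851 promoters of the RefSeq table. The C/EBP core TTGCNNAA was found in C3, at 45 bases before the start, and in 9.56% of all promoters. The PU.1 core GAGGAAGT was found on the opposite strand in C1qc, at 195 bases before the RefSeq start, and in 2.44% of all promoters. Of those bases, the 151 nearest that start lie in an exon of the GENCODE annotation and are not printed above. The IRF tandem core GAAANNGAA was found on the opposite strand in C5ar1, at 66 bases before the RefSeq start and inside the gene as GENCODE draws it, and in 7.13% of all promoters. The STAT core TTCNNNGAA, present in 7.02% of all promoters, was found in none of the 5 windows. C1qb and C3ar1 held none of the 4 motifs in these windows. The patterns share no full match with each other in the stretches printed above, and a match of letters is not a measured binding site.

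Total counts per library ranged from 23615580 to 48508461, with a median of 41226315, and the shallowest was control replicate 2. The first principal component held 71.7% of the variance and separated the groups. Trim28 itself was at 155, 178 and 155 CPM in the controls and at 48.8, 55.6 and 71.2 CPM in the cKO ovaries, and it fell (log2 fold change -1.47, standard error 0.15, edgeR adjusted p = 0.000663). Defining markers of the ovary were present in both groups, but all 6 oocyte markers and 5 of 8 granulosa markers fell in Trim28 cKO ovaries and all 8 markers of Sertoli cells, the supporting cells of the testis, rose (edgeR). The shares of all tested genes called lower and higher were 16.8% and 20.2%. All levels below are CPM (counts relative to the TMM-scaled library size), and every fold change sets the Trim28 cKO group over the control group.

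All 9 complement members were higher in Trim28 cKO than in control ovaries (edgeR quasi-likelihood test, adjusted p of at most 0.05 over 18959 genes tested). Of all genes tested, 20.2% were called higher and 16.8% lower. For all 9 members every Trim28 cKO library was above every control library, which held for 26.7% of all genes tested. The median log2 fold change of the members was 2.98, against 0.0010 over all genes tested. An exact permutation test of each member gave a two-sided p of 0.1, the smallest that 3 libraries against 3 can give. In whole-ovary RNA, more cells of a type and more RNA per cell cannot be told apart.

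**Figure D1:**
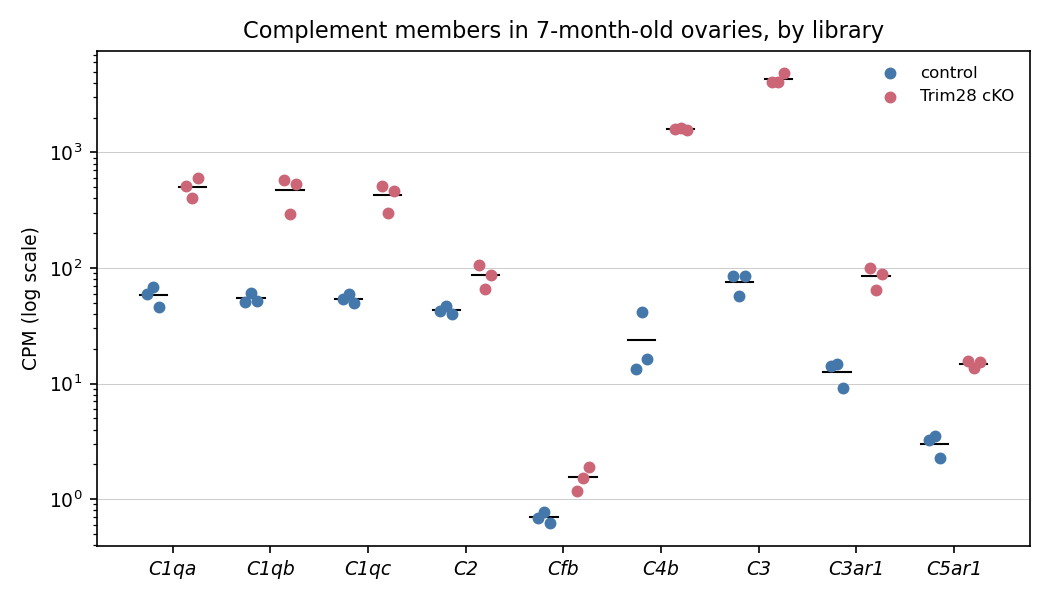
Level of each complement member in CPM (vertical log axis) in the 3 control libraries (blue points) and the 3 Trim28 cKO libraries (red points), with a line at each group mean. C3 went from a mean of 76.1 to 4315 CPM and C4b from 23.9 to 1589 CPM, while Cfb stayed under 2 CPM in every library.

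C1qa, C1qb and C1qc encode the chains that assemble together into C1q, the recognition unit of the classical pathway. C1qa was at 59.9, 68.2 and 45.7 CPM in control replicates 1, 2 and 3 and at 512, 404 and 601 CPM in Trim28 cKO replicates 1, 2 and 3. Its mean rose from 57.9 ± 11.4 to 506 ± 98.2 CPM (SD, n = 3 each; log2 fold change 3.13, standard error 0.21, edgeR adjusted p = 0.000196). The lowest Trim28 cKO library was 5.93 times the highest control library. C1qb was at 51.1, 61.1 and 51.7 CPM in the controls and at 583, 295 and 535 CPM in the cKO ovaries. Its log2 fold change was 3.11 (standard error 0.27, edgeR adjusted p = 0.000388). C1qc was at 53.5, 59.5 and 49.5 CPM in the controls and at 516, 297 and 466 CPM in the cKO ovaries. Its log2 fold change was 2.98 (standard error 0.22, edgeR adjusted p = 0.000246). Trim28 cKO replicate 2 was the lowest of its group for each of the 3 chains. The fold changes of the 3 chains lay within one standard error of each other. Within a library the chains kept near-equal counts, with C1qa taking 31.1 to 40.6% of the C1q counts, C1qb 29.6 to 36.2% and C1qc 29.1 to 33.7%, and the groups overlapped in all 3 shares.

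C4b encodes the C4 protein whose larger fragment attaches to the target surface. It had the largest log2 fold change of the 9. C4b was at 13.3, 42.0 and 16.3 CPM in the controls and at 1581, 1617 and 1568 CPM in the cKO ovaries. The coefficient of variation was 1.61% in the Trim28 cKO libraries and 66.2% in the control libraries, where replicate 2 was above the others. The mean rose from 23.9 ± 15.8 to 1589 ± 25.5 CPM (SD, n = 3 each; log2 fold change 6.07, standard error 0.50, edgeR adjusted p = 0.000354), the 110th highest log2 fold change of 18959. Without control replicate 2 the log2 fold change was 6.74. Raw counts went from 519, 1029 and 735 to 49300, 70831 and 74979. Of the 5330 windows of 50 bases in the longest C4b transcript, 35.2% also occur in C4a, a nearby gene of closely related sequence, and reads that fit both genes are left out of counts of uniquely aligned reads. C4a itself was at 10.9 to 53.4 CPM in Trim28 cKO ovaries.

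C3 encodes the protein on which all routes of complement converge. It was at 85.0, 57.2 and 86.0 CPM in the controls and at 4066, 4036 and 4843 CPM in the cKO ovaries. The mean rose from 76.1 ± 16.4 to 4315 ± 458 CPM (SD, n = 3 each; log2 fold change 5.83, standard error 0.24, edgeR adjusted p = 0.000114), the 126th highest log2 fold change of 18959. The lowest Trim28 cKO library was 46.9 times the highest control library. By raw count C3 was gene number 3103, 4676 and 3083 in the control libraries and number 8, 3 and 2 in the Trim28 cKO libraries. C4b moved in the same ranking from 10003, 6009 and 9472 to 32, 23 and 30. The 9 members together took 0.0302 to 0.0368% of all counts in control and 0.678 to 0.809% in Trim28 cKO ovaries. C3 and C4b made up 28.0 to 34.0% of these member counts in control and 75.5 to 83.2% in Trim28 cKO ovaries.

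C2 and Cfb encode the related proteases of the classical and the alternative C3-cleaving enzyme. They moved least of the 9. C2 was at 42.6, 47.3 and 40.1 CPM in the controls and at 106, 65.8 and 87.4 CPM in the cKO ovaries. Its log2 fold change was 0.995 (standard error 0.18, edgeR adjusted p = 0.00509), a ratio of means of 1.99. Cfb was at 0.692, 0.776 and 0.620 CPM in the controls and at 1.19, 1.53 and 1.90 CPM in the cKO ovaries, from 19 to 28 counts per control library and 37 to 91 per Trim28 cKO library. Its log2 fold change was 1.15 (standard error 0.30, edgeR adjusted p = 0.0218). The call for Cfb was lost by edgeR when control replicate 1 (adjusted p = 0.0744), control replicate 3 (0.0721), cKO replicate 2 (0.0557) or cKO replicate 3 (0.0741) was left out. In the GENCODE annotation the read-through gene Gm20547 (chromosome 17, 34856412 to 34882042, same strand) covers 79.5% of the exon bases of Cfb and 42.8% of those of C2, and all of its own 3902 exon bases lie in one of them. A counter in union mode leaves out a read that lies on more than one gene, so if Gm20547 was in the authors' annotation, the levels of Cfb and C2 are too low in both groups. The annotation used here is a later release than theirs and the gene table analysed here has no row for Gm20547, so a loss of reads to it was not tested. A further 4.16% of the exon bases of C2 lie on the opposite strand to Zbtb12.

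The receptors C3ar1 and C5ar1 sense the peptides C3a and C5a. C3ar1 was at 14.2, 14.8 and 9.10 CPM in the controls and at 100, 64.7 and 89.6 CPM in the cKO ovaries. Its mean went from 12.7 ± 3.14 to 84.8 ± 18.2 CPM (SD, n = 3 each; log2 fold change 2.74, standard error 0.24, edgeR adjusted p = 0.000418). C5ar1 was at 3.26, 3.51 and 2.26 CPM in the controls and at 15.6, 13.6 and 15.4 CPM in the cKO ovaries. Its mean went from 3.01 ± 0.663 to 14.9 ± 1.12 CPM (SD, n = 3 each; log2 fold change 2.31, standard error 0.21, edgeR adjusted p = 0.00047). For both receptors control replicate 3 and Trim28 cKO replicate 2 were the lowest of their groups.

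Divided by the length of the longest annotated transcript, the order of the levels changed between the groups. In control ovaries C1qa (55.7 CPM per kb), C1qb (50.2) and C1qc (45.0) came first and overlapped with their neighbours in the order. C2 (16.4 CPM per kb) and C3 (14.8) followed and overlapped with each other, and C4b (4.44) overlapped with C3ar1 (2.95). C5ar1 (1.18 CPM per kb) and Cfb (0.253) came last and were separate from all others. In Trim28 cKO ovaries C3 stood first at 840.2 CPM per kb, apart from all others. It was followed by C1qa (486 CPM per kb), C1qb (433), C1qc (354) and C4b (295), of which each overlapped with the next. C2 (32.7 CPM per kb), C3ar1 (19.7), C5ar1 (5.86) and Cfb (0.560) came after them without overlap. In neither group were lengths corrected for bases shared with Gm20547 (Cfb and C2) or C4a (C4b). The places of Cfb, C2 and C4b in both orders may therefore be too low. With all annotated exon bases as the length, C1qc fell to 221 CPM per kb in Trim28 cKO ovaries, below C4b at 279. The deposited median transcript length is 608 bases for C3 and 763 for C4b, against 5136 and 5379 for their longest transcripts. With it, C3 (7097 CPM per kb) and C4b (2082) were the highest of the 9 in Trim28 cKO ovaries. In control ovaries C3 (125 CPM per kb) and C2 (62.4) then stood above C1qa (55.7), and C4b was at 31.3. With this length C3 thus came first in both groups.

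Across the 6 libraries the pairwise Pearson correlations of log2 CPM among the 9 members ran from 0.819 (C2 and Cfb) to 0.999 (C1qb and C1qc). These values are a description of 2 groups of 3 libraries that differ in every member. Among 12409 genes outside the members with a mean of at least 5 CPM, the 5 with the pattern most like C1qa were Spi1 (r = 0.9993), Irf5 (0.9990), Cd48 (0.9985), Ube2l6 (0.9983) and Nckap1l (0.9982), each over 6 libraries. Spi1 encodes PU.1, a transcription factor of the myeloid lineage, and is also on the macrophage list used next. Irf5 encodes an interferon regulatory factor of myeloid and B cells, Cd48 a surface protein of leukocytes, Nckap1l an actin regulator of blood cells and Ube2l6 an enzyme of the interferon-induced ISG15 conjugation system that is not confined to leukocytes.

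Markers of leukocytes, above all of macrophages, rose in the same libraries as the members. All 16 macrophage markers rose, with log2 fold changes from 1.35 (Mertk, a receptor for uptake of dying cells) to 3.83 (Ctss, a lysosomal protease) and a median of 2.86. Lyz2 alone gave 27.0 to 32.9% of their summed level in control and 34.9 to 45.1% in Trim28 cKO libraries, without overlap. The summed level was 586 to 668 CPM in control and 6455, 3418 and 5857 CPM in Trim28 cKO replicates 1, 2 and 3. Trim28 cKO replicate 2 was thus the lowest of its group for this sum, as it was for the C1q chains, C2, C3 and both receptors. For C3 it was close to replicate 1 (4036 against 4066 CPM). C4b was lowest in replicate 3 and Cfb in replicate 1. Of 10 neutrophil and monocyte markers listed, 7 were tested and 6 rose, and of the lymphocyte markers 5 of 10. Over all genes tested, 20.2% were called higher and 16.8% lower. Among the neutrophil and monocyte markers that rose, S100a9 and Camp were low, at mean levels of 0.223 and 0.0824 CPM in control and 0.911 and 0.876 CPM in Trim28 cKO ovaries. Csf3r went from a mean of 3.67 to 22.1 CPM. Of 8 fibroblast markers 2 (25%) rose by edgeR, a share near that of all genes, and by DESeq2 3 rose and 1 fell. Their summed level was 2373 to 2731 CPM in control and 3147 to 4259 CPM in Trim28 cKO libraries, without overlap. Dcn among them went from a mean of 469 to 1606 CPM, and the median log2 fold change of the 8 was 0.11. Of 8 endothelial and 6 adipocyte markers none was called by edgeR or limma-voom. DESeq2 called 1 in each of these lists higher, and 2 endothelial and 1 adipocyte markers were higher at an unadjusted p under 0.05 by edgeR. Of the hepatocyte markers only Ahsg was abundant enough to be tested and it rose, and Alb, the defining gene of hepatocytes, was at 0 to 0.160 CPM in every library.

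To set the members beside these cells, the count of each member was divided by the summed counts of the 16 macrophage markers in the same library, as a description with no test. On this scale C1qb was at 0.0765, 0.0966 and 0.0883 in control and 0.0903, 0.0862 and 0.0914 in Trim28 cKO ovaries. C1qa, C1qc, C3ar1 and C5ar1 also overlapped between groups, with ratios of the group means of 1.09, 0.952, 0.827 and 0.633. C3 was at 0.127, 0.0904 and 0.147 in control and 0.630, 1.18 and 0.827 in Trim28 cKO ovaries, where the mean was 7.24 times that of the controls. C4b was at 0.0199, 0.0664 and 0.0278 in control and 0.245, 0.473 and 0.268 in Trim28 cKO ovaries, where the mean was 8.64 times that of the controls. For both genes the groups did not overlap. C2 and Cfb, which rose less than the macrophage sum, were lower on this scale without overlap, at 0.244 and 0.288 times the control mean. The sum itself went from 586 to 668 CPM in control to 3418 to 6455 CPM in Trim28 cKO libraries. Any gene that rose less than this sum is lower on this scale by arithmetic, and the share of all genes that do so was not computed.

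**Figure D2:**
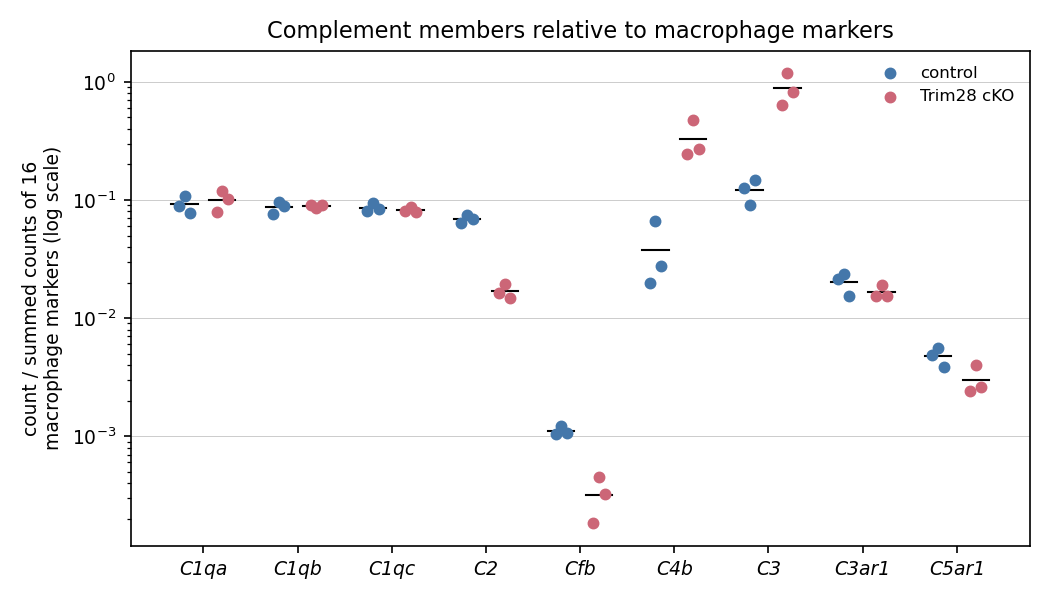
Count of each member divided by the summed counts of 16 macrophage markers in the same library (vertical log axis), in 3 control (blue) and 3 Trim28 cKO libraries (red), with a line at each group mean. C1qa, C1qb, C1qc, C3ar1 and C5ar1 overlap between groups, C3 and C4b are higher and C2 and Cfb lower in Trim28 cKO libraries. The denominator itself rose, so a gene that rose less than it lies lower here.

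The denominator matters for the C1q chains, as 2 alternatives chosen after seeing the data showed. Without Lyz2 in the sum, C1qb no longer overlapped and was 1.17 times the control mean, while C1qa (1.23) and C1qc (1.09) still overlapped. Against Adgre1 alone, the gene of the macrophage surface protein F4/80, C1qa, C1qb, C1qc and C3ar1 were 2.03, 1.95, 1.80 and 1.58 times the control mean without overlap, and C5ar1 was 1.17 times with overlap. Under both alternatives C3 (8.06 and 12.6 times) and C4b (9.89 and 16.3 times) were higher and C2 (0.279 and 0.459 times) and Cfb (0.322 and 0.508 times) lower, without overlap. These denominators rose too, so here as well a gene that rose less than them is lower by arithmetic. Which cells carried the RNA of any member was not tested.

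The rest of the pathway was followed in 45 other complement genes. Of these, 43 were in the table and 37 were tested. By edgeR 20 rose (54.1%), 3 fell (8.11%) and 14 were not called, with a median log2 fold change of 1.18. Over all genes tested, the shares were 20.2% higher and 16.8% lower. Of the genes of initiation and of the convertases, 7 of 13 rose and 1 fell. Of the 4 mouse genes of the proteases that join C1q in the C1 complex, C1rb and C1s2 were not called and 2 rose, namely C1ra (39.8, 38.9 and 28.1 CPM in the controls, 174, 157 and 136 CPM in the cKO ovaries, log2 fold change 2.13) and C1s1 (223, 147 and 107 against 526, 663 and 325 CPM, log2 fold change 1.66). The related C1rl (log2 fold change 0.96) rose too, as did the lectin pathway protease gene Masp1 (1.17) and the ficolin gene Fcna (2.94), whose product recognises sugars. Properdin (Cfp), which stabilises the alternative convertase, rose with a log2 fold change of 1.57. Mbl2, the gene of a mannose-binding lectin, fell from 1.36, 2.37 and 1.64 CPM to 0.256, 0.457 and 0.230 CPM (log2 fold change -2.48). C1rb and Cfd were not called and varied widely within both groups, C1rb from 0.667 to 39.7 CPM in the controls and up to 232 CPM in the cKO ovaries. Cfd encodes factor D, the protease that activates factor B and is known as adipsin from fat. It was at 53.2, 0.653 and 0.620 CPM in the controls and at 1.67, 9.20 and 72.8 CPM in the cKO ovaries, and the same libraries were high for Adipoq, the fat cell hormone gene, at 16.8, 0.0816 and 0.155 CPM in the controls and at 0.513, 13.7 and 37.6 CPM in the cKO ovaries. The 6 adipocyte markers summed to 14.2 to 58.9 CPM in control and 20.1 to 131 CPM in Trim28 cKO libraries, and their part in the level of Cfd was not tested.

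**Figure D3:**
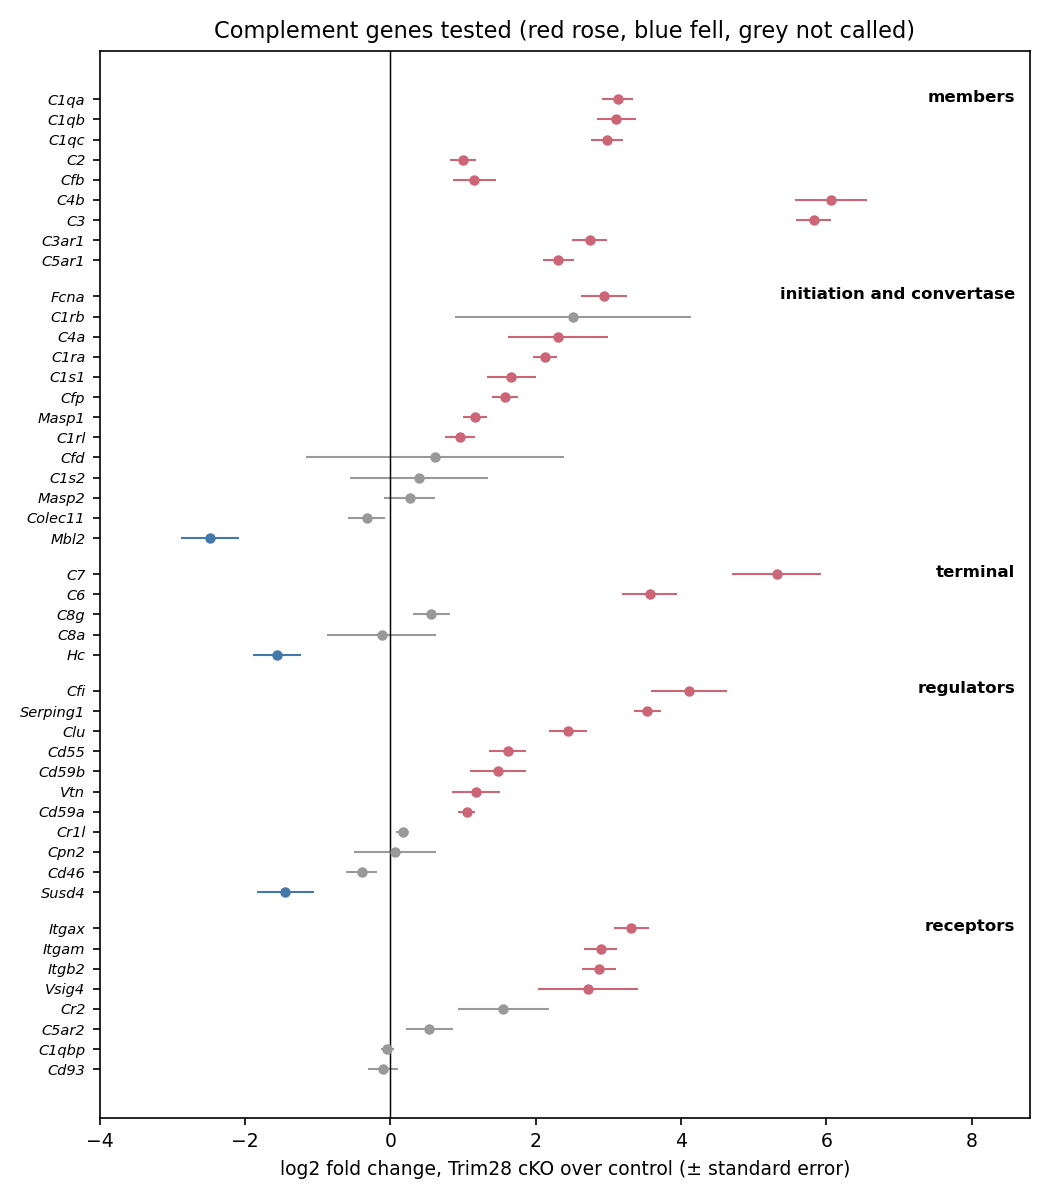
Log2 fold change of Trim28 cKO over control (horizontal axis) with its standard error (bars) for the 9 members and the 37 other complement genes tested, grouped by role. Red marks genes that rose, blue genes that fell and grey genes that were not called by edgeR. All members lie to the right of 0, and the genes that fell are Mbl2, Hc and Susd4.

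C4a, the second mouse C4 gene, encodes the sex-limited protein. It was at 5.41, 8.53 and 2.501 CPM in the controls and at 16.1, 53.4 and 10.9 CPM in the cKO ovaries. Its log2 fold change was 2.31 (standard error 0.69, edgeR adjusted p = 0.0360), and the call was lost without control replicate 1 (adjusted p = 0.102), control replicate 3 (0.0940) or Trim28 cKO replicate 2 (0.0899, log2 fold change 1.32). Unlike C4b, which was nearly equal in the 3 Trim28 cKO libraries, C4a was highest in replicate 2. As with C4b, reads from the stretches that both genes share were left out.

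In the terminal pathway, which forms the membrane pore, C7 and C6 rose and Hc, the gene of C5, fell. C7 was at 5.44, 20.6 and 5.00 CPM in the controls and at 421, 329 and 461 CPM in the cKO ovaries (log2 fold change 5.31, standard error 0.61, edgeR adjusted p = 0.000933). Control replicate 2 was the highest control library for C7, as for C4b, and without it the log2 fold change of C7 was 6.27. C6 went from 2.15, 1.06 and 0.885 to 14.0, 15.0 and 19.9 CPM (log2 fold change 3.57). Hc went from 4.44, 2.73 and 4.45 to 1.70, 0.959 and 1.30 CPM (log2 fold change -1.56, standard error 0.33, edgeR adjusted p = 0.00958). C5a, the ligand of C5ar1, is cut from the product of Hc, and the RNA of the receptor was higher and that of the ligand's precursor lower in the same 3 Trim28 cKO libraries. C8a and C8g were not called, and C8b and C9 were too low to be tested.

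Among the regulators, 7 of 11 tested rose and 1 fell, beside 20.2% of all genes tested called higher and 16.8% lower. Serping1, the gene of the C1 inhibitor, went from 127, 129 and 106 to 1642, 1134 and 1419 CPM (log2 fold change 3.53, standard error 0.18, edgeR adjusted p = 0.000114). Clu encodes clusterin, which binds terminal complexes and is abundant in Sertoli cells. It went from 1047, 1221 and 779 to 6632, 5862 and 4068 CPM (log2 fold change 2.44) and was among the 6 highest raw counts of every Trim28 cKO library. Cfi, the gene of factor I, a protease that cleaves fragments of C3 and C4, went from 0.308, 0.163 and 0.487 to 8.91, 3.31 and 5.21 CPM (log2 fold change 4.11). The membrane regulators Cd55 (log2 fold change 1.61), Cd59a (1.05) and Cd59b (1.48) rose, as did Vtn (1.18), the gene of vitronectin. Susd4 fell (log2 fold change -1.45). The calls of Cd59b, Vtn and Susd4 were each lost when certain single libraries were left out, given in the closing section.

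Of the 8 receptor genes beside the members, 4 rose and 4 were not called by edgeR, where 20.2% of all genes tested were called higher. Itgam and Itgax encode the alpha chains of complement receptors 3 and 4 and Itgb2 their shared beta chain. Itgam went from 3.72, 3.55 and 2.26 to 22.8, 21.4 and 26.2 CPM (log2 fold change 2.89), Itgax rose with a log2 fold change of 3.32 and Itgb2 with 2.87. Of the exon bases of Itgam, 68.7% are shared on the same strand with another annotated gene, Gm49368, so reads may have been left out there too. Vsig4, a receptor for C3 fragments on tissue macrophages, rose from 0.0769, 0.0408 and 0.376 to 1.35, 0.776 and 1.49 CPM (log2 fold change 2.72, edgeR adjusted p = 0.0199), a call that was lost when certain single libraries were left out. Without control replicate 3 the log2 fold change of Vsig4 was 4.20. Cd93 (log2 fold change -0.10) and C1qbp (-0.04), both named for proposed C1q binding, were not called, nor were Cr2 and C5ar2.

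The genes next to the members were called about as often as genes in general. Of 13 tested protein-coding genes that flank or overlap a member or a group of adjacent members, by edgeR 2 rose, 3 fell and 8 were not called, with log2 fold changes from -0.46 to 0.54 among the last, beside 20.2% of all tested genes called higher and 16.8% lower. Next to the C1q genes, Epha8, an ephrin receptor gene 30616 bases away, fell from 1.93 ± 1.12 to 0.164 ± 0.0954 CPM (SD, n = 3 each; log2 fold change -3.52, edgeR adjusted p = 0.00516), and to -4.13 on the log2 scale without cKO replicate 3. Zbtb12, which overlaps the span of C2, fell with a log2 fold change of -0.54, and Tnxb, 8565 bases from C4b, with -1.05. Tnfsf14, a cytokine gene 9781 bases from C3, rose from 0.629 ± 0.224 to 2.06 ± 1.07 CPM (SD, n = 3 each; log2 fold change 1.73, edgeR adjusted p = 0.0258). The calls of Tnxb and Tnfsf14 were lost when certain single libraries were left out. C5ar2, beside C5ar1 and a second receptor for C5a, was at 0.539, 0.898 and 0.664 CPM in the controls and at 1.09, 1.14 and 0.795 CPM in the cKO ovaries.

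Cyp21a1, the steroid 21-hydroxylase gene of the adrenal cortex, lies 57466 bases from C4b on the side of C4a and had the largest change among these neighbours. It was at 0.180, 0.204 and 0.0443 CPM in the controls and at 28.4, 77.1 and 8.07 CPM in the cKO ovaries (log2 fold change 8.14, standard error 1.09, edgeR adjusted p = 0.00161). Without cKO replicate 2 the log2 fold change was 7.07. The 6 libraries stood in the same order for Cyp21a1 as for C4a, with Trim28 cKO replicate 2 highest and control replicate 3 lowest.

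**Figure D4:**
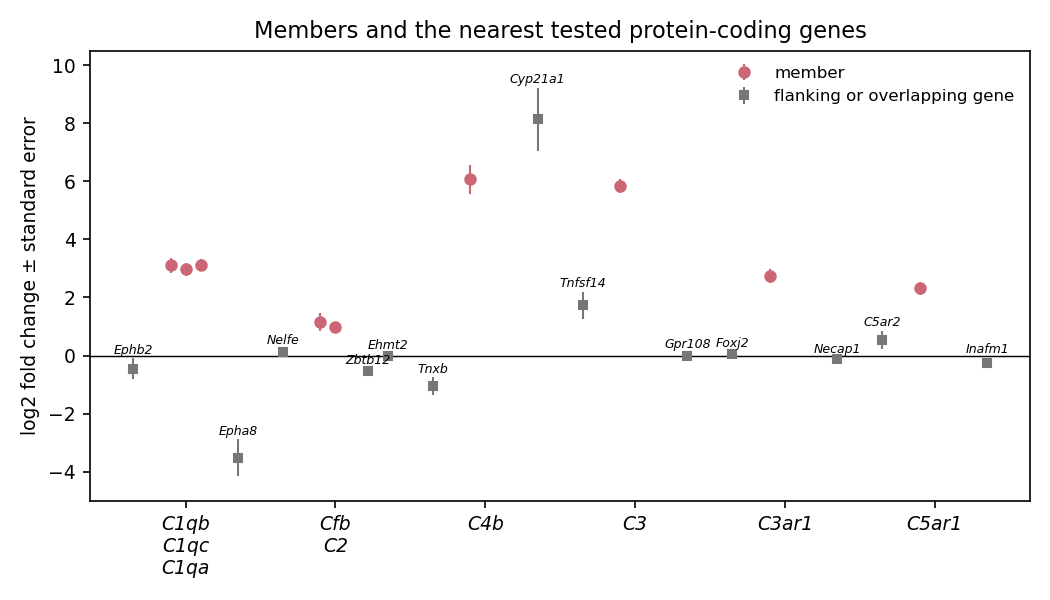
Log2 fold change with its standard error (vertical axis) for the members (red circles) and for the 13 nearest or overlapping tested protein-coding genes (grey squares), set out by locus along the horizontal axis. All members lie above 0, and of the neighbours Cyp21a1 and Tnfsf14 were called higher and Epha8, Zbtb12 and Tnxb lower, where 20.2% of all tested genes were called higher and 16.8% lower.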

How the data were processed

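Total RNA of whole ovaries was made into polyadenylated, strand-marked libraries, and single-end reads of 50 bases were mapped by the authors to mm10 with STAR 2.5.3a. The deposited raw counts per Ensembl gene are uniquely aligned reads from htseq-count 0.6.1p1 in union mode, and its strand setting is not stated in the sources used here. Demultiplexing with bcl2fastq 2.17.1.14 is named in the submitters' processing notes. The authors further deposited a signal of counts divided by DESeq2 1.16.1 size factors, the same signal per kb of the median transcript length, that length, log2 fold changes, and p-values of their own comparison. Of these only the median transcript length served, as an alternative length.

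From the counts, 18959 of 34461 genes passed filterByExpr (minimum count 10, minimum total 15) and entered the two-sided quasi-likelihood test of edgeR 4.0.16 (R 4.3.3; TMM scaling, robust glmQLFit, then glmQLFTest), with Benjamini-Hochberg adjustment over all tested genes. The call was an adjusted p up to 0.05, whatever the fold change. The standard error is the size of the log2 fold change over the square root of F. Log2 CPM for correlations used a prior count of 2. The alternatives were edgeR with size factors of DESeq2 1.42.0 or with library size alone, no filter, a filter of 1 CPM in 3 libraries, DESeq2's own Wald test, limma-voom (limma 3.58.1), the replicate number as a block, each library left out, an adjusted p of 0.01 and a log2 fold change beyond 1. Libraries of a group differed by more than sampling noise, with a chi-square of 29.4 to 89.4 for each degree of freedom. Gene models and lengths came from GENCODE M21 and start sites from RefSeq. Python 3.11.15 with numpy 2.4.6, pandas 2.3.3 and matplotlib 3.10.9 was used for the rest.

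The members, gene lists, motifs and tests were chosen with earlier results of these data known. Named genes were taken from the members, Trim28, the other complement genes (1 is not reported here, and several that were not called or too low to test are only counted), the flanking and overlapping genes, the 5 genes most like C1qa, and up to 2 highest and 2 lowest called genes of each marker list. Lyz2, Adgre1, Adipoq and Alb were named after their values were seen. P-values measure only the spread between libraries.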

Additional observations from a re-analysis of the deposited data

How the results depend on the processing

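Of the 9 members, 8 kept their call and direction under all 13 other settings of the test, and Cfb kept its direction under all and its call under 8. With a log2 fold change beyond 1 required, 8 members were called and C2, at 0.995, was not. At an adjusted p of 0.01, 8 members were called and Cfb was not. The number of members called higher was 8 to 9 when single libraries were left out, and the number of other complement genes called was 16 to 20 higher and 2 to 4 lower. Among all tested genes, those called higher numbered 2801 to 3649 and those lower 2039 to 2753 when single libraries were left out, with the lowest count of genes called lower without control replicate 1. At an adjusted p of 0.01, 2238 genes were higher and 1528 lower, and with a log2 fold change beyond 1, 1523 were lower. A stricter limit on the same test can only lower these counts. Why they differed with the library left out was not tested.

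The replicate numbers did not pair the libraries: deviations from the group means correlated at -0.07, 0.06 and -0.17 between same-numbered libraries, and not every library correlated best with its own number. With the replicate number as a block, 8 members and 20 other complement genes were called higher and 3 lower, the log2 fold change of Cfb was 1.13 (edgeR adjusted p = 0.0650), that of Vtn 1.14 (adjusted p = 0.0841) and that of C1rb, not called otherwise, 2.64 (adjusted p = 0.0120).

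Calls of other named genes that were lost when single libraries were left out, with the highest adjusted p by edgeR, were those of Cd59b (without each control library, 0.0653), Vtn (without each control library or cKO replicates 2 and 3, 0.0906), Susd4 (without replicate 1 or 2 of either group, 0.0761), Vsig4 (without control replicate 1 or cKO replicates 1 and 3, 0.0682), Tnxb (without control replicate 3 or cKO replicates 1 and 2, 0.102) and Tnfsf14 (without control replicate 1, control replicate 3 or cKO replicate 3, 0.0896). Without a filter on low counts, C4a (adjusted p = 0.169) and Tnxb (0.126) were not called, and by limma-voom C4a was not (0.0690). Signs turned for several genes with no call. With single libraries left out, the log2 fold changes ran from -0.30 to 5.25 for C1rb and -1.73 to 5.46 for Cfd (both lowest without cKO replicate 3), from -0.37 to 0.034 for Cd93 and from -0.092 to 0.0038 for C1qbp. Over all settings they ran from -0.53 to 0.39 for C8a, -0.27 to 2.17 for C1s2, -0.21 to 0.50 for Masp2 and -0.29 to 0.37 for Cpn2. The plotted neighbours Ephb2, Ehmt2, Gpr108 and Foxj2 turned sign too. The cause was not tested in any of these.

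Cfb, with 19 to 28 counts per control library, had the lowest counts of the members. Whether reads shared with Gm20547 were lost from it was not tested. The other 8 have at least 86 counts in every library.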
